A study of Mus musculus with 32 samples.

Results

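Wild-type (WT, C57BL/6) bone marrow-derived macrophages (BMDMs) that received LPS, zVAD and necrostatin-1 (Nec-1) together were compared with WT BMDMs that received LPS alone. The 2 groups were chosen by their labels for genotype and treatment, and they hold 4 of the 32 arrays of the series, 2 in each group. The macrophages were grown from mouse bone marrow with M-CSF and treated for 6 h before total RNA was extracted. By the labels the dose of LPS was 100 ng/mL and that of IFNβ 1000 U/mL. The study's text gives other doses, and only the text gives those of zVAD and Nec-1. The whole series has 16 groups of 2 arrays, in which WT and Ifnar1KO BMDMs (without a chain of the receptor for type I interferons) were left untreated or received zVAD alone, or received LPS or IFNβ either alone, with zVAD, or with zVAD and Nec-1. The series has no group with LPS and Nec-1 without zVAD, so a change that zVAD leaves under Nec-1 and a change that Nec-1 itself makes cannot be told apart here. The labels do not say whether replicates came from separate mice or cultures, and p-values then measure only the spread between these arrays.

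LPS, a component of the outer membrane of Gram-negative bacteria, binds TLR4 on macrophages and starts NF-κB, MAP kinase and interferon signalling. Caspase-8 normally cleaves the kinases RIPK1 and RIPK3. When zVAD, a broad inhibitor of caspases, blocks caspase-8, RIPK1 and RIPK3 can assemble the necrosome and activate MLKL, which opens the plasma membrane in the form of cell death called necroptosis. Nec-1 inhibits the kinase activity of RIPK1 and is widely used to block this route. The comparison with LPS alone asks which transcripts still differ when both inhibitors are present.

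RNA was labelled with 1 dye and hybridised to Agilent mouse arrays, and all levels below are log2 signals after quantile normalisation, given for replicate 1 and then replicate 2. Replicate 1 of every WT group lay on slide 1 and replicate 2 on slide 2. Probes well above background made up 68.3% and 62.5% of the 55681 probes on the LPS arrays and 55.0% and 57.6% on the LPS+zVAD+Nec-1 arrays, with a range of 44.5% to 78.1% over the series. The median absolute difference between the 2 replicates was 0.38 log2 for LPS and 0.31 log2 for LPS+zVAD+Nec-1. All 7 macrophage markers examined (Csf1r, Adgre1, Cd68, Lyz2, Itgam, Mertk and Fcgr1) were above background on the 4 arrays, and the log2 of their summed signal lay between 19.5 and 19.6 on each. Of the markers of other cells, those of NK cells (Ncr1 and Klrb1c) were not above background on any of the 4 arrays, and all 5 of neutrophils were, with summed log2 signals of 14.7 and 15.4 with LPS and of 14.5 and 15.2 with LPS+zVAD+Nec-1. Above background on all 4 arrays were also 4 of 4 fibroblast, 2 of 2 endothelial, 2 of 3 B cell and 2 of 3 dendritic cell markers. So were 1 of 3 for T cells, 1 of 3 for erythroid cells and 0 of 2 for mast cells and basophils. The part of such cells in the results was not tested. In bulk RNA, fewer cells of a type and less RNA per cell cannot be told apart.

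Of 16091 genes tested with limma, 19 differed between LPS+zVAD+Nec-1 and LPS at an adjusted p under 0.05 (0.118% of the genes), and 1052 had an unadjusted p under 0.05. Of the 19, 16 were higher with LPS+zVAD+Nec-1 (0.0994%) and 3 were lower (0.0186%). This balance moved with the processing, to 21 higher and 20 lower with normexp background correction, and to 10 and 8 with the authors' normalised table. The higher genes included those of a stress-induced cytokine (Gdf15), an EGF receptor ligand (Hbegf), urokinase (Plau), LIGHT (Tnfsf14) and the TWEAK receptor (Tnfrsf12a), and the lower genes those of a triglyceride-synthesis enzyme (Dgat2) and a ligand of the CSF1 receptor (Il34). Their log2 changes ran from 1.01 to 4.73 upwards and from -1.43 to -2.18 downwards, and each of the 19 was above background on all 4 arrays. Over all genes, 49.7% had a log2 change above 0 and 50.3% one below 0. The genes just inside the threshold were Tnfsf14, Pcna and Sphk1 (adjusted p = 0.0368, 0.0381 and 0.0381), and those just outside were Stambpl1, Zfp568 and Dok7 (0.0534, 0.0557 and 0.0575). On the mm9 assembly the probe of Gdf15 lay on chromosome 8, 73153293 to 73153352, that of Plau on chromosome 14, 21662242 to 21662301, that of Tent5c on chromosome 3, 100275573 to 100275632, that of Gadd45g on chromosome 13, 51943733 to 51943792, that of Dgat2 on chromosome 7, 106302215 to 106302274 and that of Il34 on chromosome 8, 113265835 to 113265894. The count was 0 without LPS replicate 2, 9 (2 of them among the 19) without LPS+zVAD+Nec-1 replicate 2 and 45 (13 of them) without LPS+zVAD+Nec-1 replicate 1. Without LPS replicate 1 it was 69, 24 higher and 45 lower, with 14 of the 19. It was 0 in a fit of the WT arrays alone, and 82, the 19 among them, without the Ifnar1KO LPS+zVAD+Nec-1 arrays, which enter only the pooled spread.

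**Figure D1:**
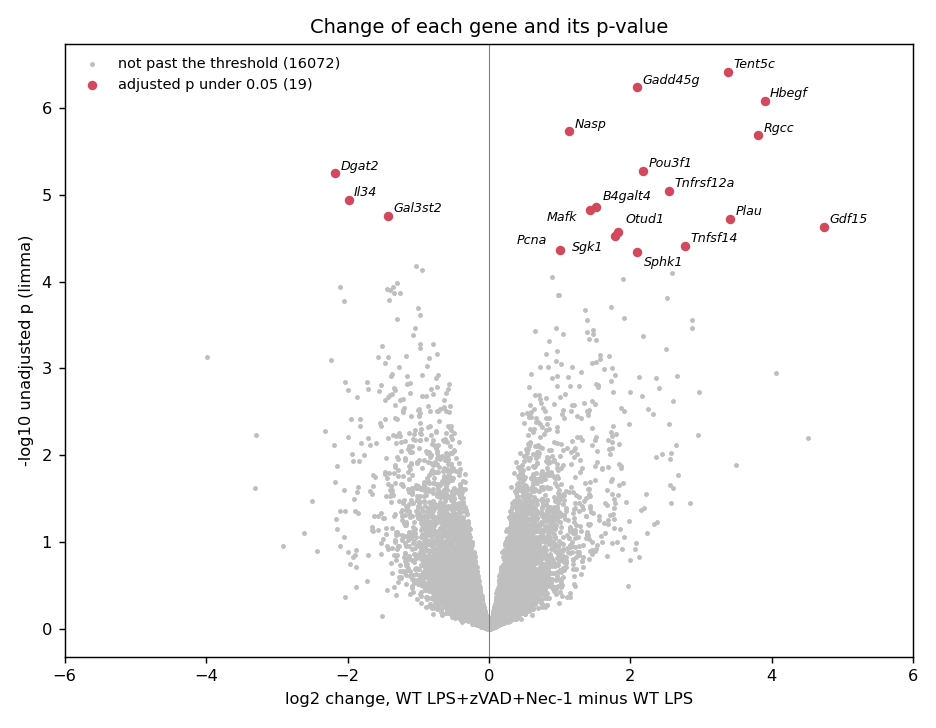
Each point is 1 of the 16091 genes, with the log2 change from WT LPS to WT LPS+zVAD+Nec-1 on the x axis and the −log10 of the unadjusted limma p on the y axis. The 19 genes with an adjusted p under 0.05 are in red and named, 16 to the right of 0 and 3 to the left, with Gdf15 farthest right at 4.73.

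Among the 16 higher genes were 5 for secreted factors and a receptor. Gdf15 encodes a cytokine of the TGF-β superfamily that many cell stresses induce. Its level was 10.14 and 9.75 on the LPS arrays and 13.84 and 15.51 on the LPS+zVAD+Nec-1 arrays, a 26.6-fold difference (log2 fold change 4.73, SE 0.85, adjusted p = 0.0269). Hbegf, whose product is shed from the membrane as a ligand of the EGF receptor, was at 8.04 and 6.44 with LPS and at 10.78 and 11.51 with LPS+zVAD+Nec-1 (3.90 log2, SE 0.54, adjusted p = 0.00442). Plau encodes the urokinase plasminogen activator, a secreted protease that converts plasminogen to plasmin. It went from 6.66 and 6.15 to 8.85 and 10.77 (3.41 log2, SE 0.60, adjusted p = 0.0234), and the second LPS+zVAD+Nec-1 array stood well above the first. Tnfsf14 (LIGHT, a TNF-family ligand of the lymphotoxin β receptor) went from 7.24 and 6.88 to 9.46 and 10.20 (2.77 log2, SE 0.52, adjusted p = 0.0368). Tnfrsf12a encodes Fn14, the receptor of the TNF-family cytokine TWEAK. Its levels were 10.88 and 9.77 with LPS and 12.33 and 13.41 with LPS+zVAD+Nec-1 (2.55 log2, SE 0.42, adjusted p = 0.0181).

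A second group encodes regulators inside the cell. Rgcc, a regulator of the cell cycle first described as a gene induced by complement, rose from 9.96 and 9.68 to 12.95 and 14.30 (3.80 log2, SE 0.56, adjusted p = 0.00665). Tent5c, which encodes a non-canonical poly(A) polymerase that lengthens mRNA tails, rose from 9.19 and 9.31 to 11.93 and 13.33 (3.38 log2, SE 0.44, adjusted p = 0.00442). Gadd45g, a stress sensor that activates a kinase upstream of p38, rose from 12.92 and 12.28 to 14.65 and 14.74 (2.10 log2, SE 0.28, adjusted p = 0.00442) and its treated arrays lay close together. Tent5c and Gadd45g were each called in 3 of the 4 fits that left out 1 of the 4 arrays, the exception being the fit without LPS replicate 2 (adjusted p = 0.0704 and 0.169), and of the other 14 genes named by the rule none was called in more than 2 of those fits. Sphk1, the kinase that makes sphingosine-1-phosphate, rose from 10.54 and 9.81 to 11.90 and 12.62 (2.09 log2, adjusted p = 0.0381). Sgk1, a kinase induced by serum and glucocorticoids, rose from 12.13 and 12.18 to 13.46 and 14.42 (1.79 log2, adjusted p = 0.0301). Otud1, a deubiquitinase, went from 8.07 and 7.57 to 9.73 and 9.56 (1.83 log2, adjusted p = 0.0288).
Of the transcription factors, Pou3f1 (a POU-domain factor) went from 10.94 and 10.08 to 12.34 and 13.04 (2.18 log2, adjusted p = 0.0129) and Mafk (a small MAF protein that pairs with NRF2 or BACH1 on DNA) from 11.31 and 10.58 to 12.35 and 12.38 (1.42 log2, adjusted p = 0.0218).

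The 3 remaining higher genes changed by 1.01 to 1.51 log2. Pcna, the sliding clamp of DNA polymerase, went from 15.37 and 14.92 to 16.06 and 16.25 (1.01 log2, SE 0.19, adjusted p = 0.0381). Nasp, a histone chaperone, went from 11.64 and 11.41 to 12.55 and 12.76 (1.13 log2, SE 0.17, adjusted p = 0.00665). B4galt4, a galactosyltransferase of the Golgi, went from 8.81 and 8.93 to 10.22 and 10.53 (1.51 log2, SE 0.26, adjusted p = 0.0218). B4galt4, Mafk and Nasp stood outside the rule for naming genes and were added after their values were seen.

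The 3 lower genes were all raised by LPS alone, and with LPS+zVAD+Nec-1 they lay closer to the untreated level. Dgat2 encodes the enzyme of the last step of triglyceride synthesis. It was at 8.08 and 8.36 in untreated cells, 12.35 and 13.69 with LPS and 10.67 and 11.02 with LPS+zVAD+Nec-1 (-2.18 log2 against LPS, SE 0.35, adjusted p = 0.0129). Il34, a cytokine that binds the receptor of CSF1, was at 5.70 and 5.79 in untreated cells, 8.44 and 7.75 with LPS and 6.11 and 6.11 with LPS+zVAD+Nec-1 (-1.99 log2, SE 0.33, adjusted p = 0.0204). Gal3st2, a sulphotransferase that acts on galactose of glycans, was at 9.10 and 8.93 in untreated cells, 9.91 and 10.14 with LPS and 8.67 and 8.52 with LPS+zVAD+Nec-1 (-1.43 log2, SE 0.25, adjusted p = 0.0234). LPS against untreated gave log2 changes of 4.80 for Dgat2, 2.35 for Il34 and 1.01 for Gal3st2 (adjusted p = 2.36e-08, 2.2e-05 and 0.00306). The LPS arrays enter both comparisons, with opposite sign.

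**Figure D2:**
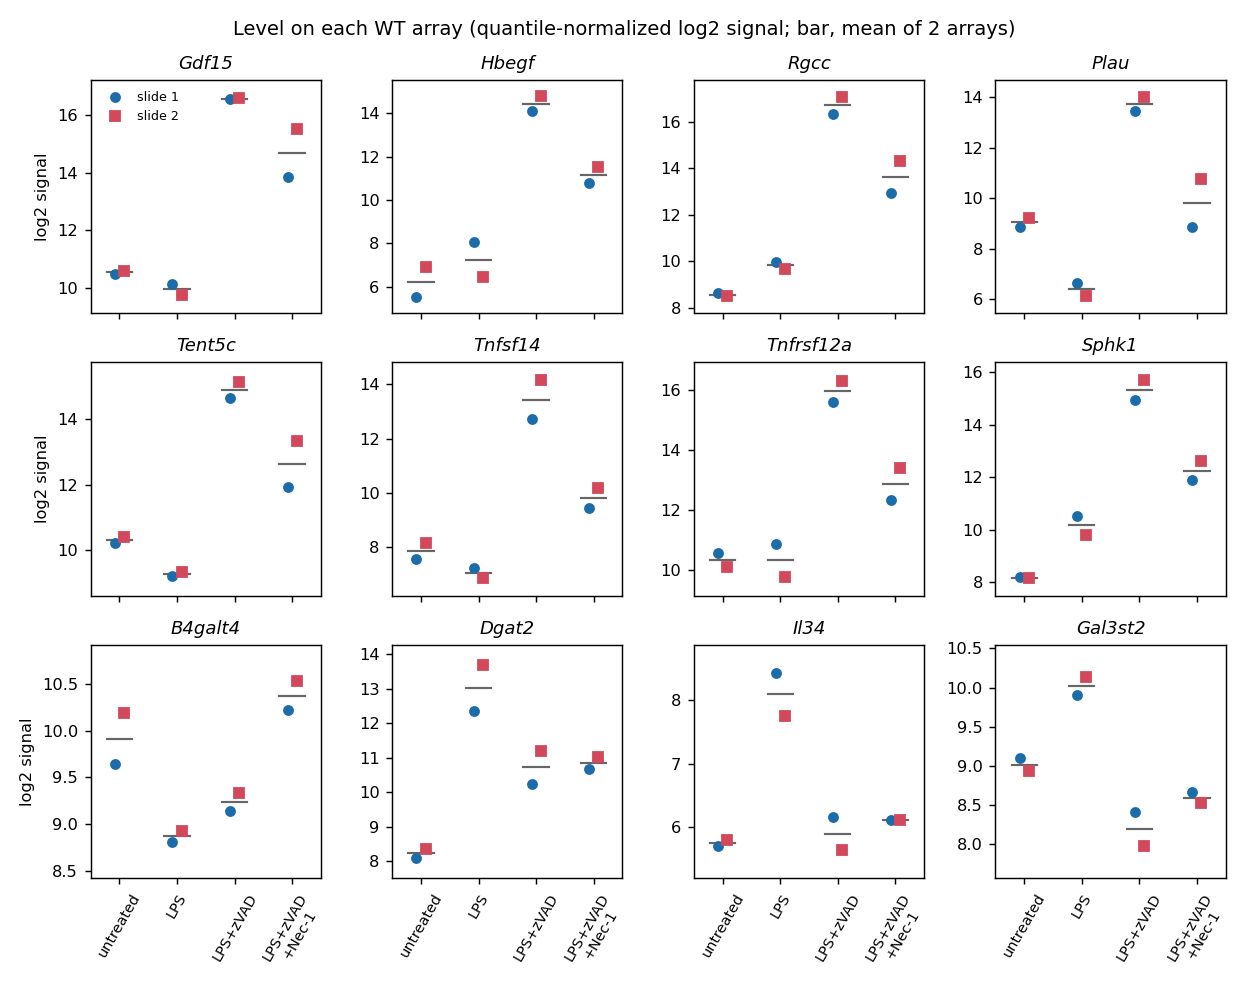
Quantile-normalised log2 signal of 12 of the 19 genes on each WT array of 4 treatments, with slide 1 as circles, slide 2 as squares and the mean of the 2 arrays as a bar; each panel has its own y axis, which does not start at 0. For the 8 genes of the upper 2 rows the LPS+zVAD+Nec-1 arrays lie between LPS and LPS+zVAD, B4galt4 is highest with LPS+zVAD+Nec-1, and for Dgat2, Il34 and Gal3st2 the LPS arrays are highest.

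The upstream sequences of the 19 genes were searched for short motifs of stress-responsive transcription factors, in the 250 bases before each gene's start, on both strands. RefSeq promoters (GRCm38.p6) were listed for 14 of the 19, and not for Hbegf, Plau, Pou3f1, Il34 and Dgat2. TGANTCA, a looser form of the AP-1 site with any base at N, was found in 3 of the 14 (Tnfsf14, Sphk1 and Nasp), against 7.82% of the 27025 listed genes. The AP-1 site itself has C or G at N. Tnfsf14 and Sphk1 have TGAGTCA, but Nasp has TGAATCA, which is not that site. The share of 7.82% also counts any base at N. TGACNNNGC, the core of the antioxidant response element that NRF2 and small MAF proteins bind, was found in 5 of the 14 (Gadd45g, Sphk1, Otud1, Mafk and Pcna), against 11.5%. In Sphk1, which has several listed starts, the matches to these 2 motifs overlap. A gene counted if any of its listed starts had the motif. The 14 genes have 24 listed starts and the 27025 genes have 32851, so more sequence per gene was searched in the 14. TGACGTCA was found in 0 of the 14 (1.77% of all) and the NF-κB motif in 0 of 14 (0.414%), while the interferon-stimulated response element was found in Sgk1 and Gal3st2 (3.46%). The stretches of 80 bases around the match are shown for the 6 genes that rose and have 1 listed start, 5′ to 3′ on the gene's strand, with the matching letters in capitals. A match is a description of these letters and no measurement of binding. The stretches with TGANTCA lie at chr17:57194299-57194378 (minus strand) for Tnfsf14 and at chr4:116628037-116628116 (minus strand) for Nasp.
Tnfsf14: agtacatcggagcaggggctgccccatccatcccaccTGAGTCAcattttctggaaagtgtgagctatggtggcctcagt
Nasp: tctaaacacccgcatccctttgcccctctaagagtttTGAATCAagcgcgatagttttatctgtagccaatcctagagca
Those with the antioxidant response element lie at chr13:51846471-51846550 (plus strand) for Gadd45g, chr2:19657645-19657724 (plus strand) for Otud1, chr5:139791456-139791535 (plus strand) for Mafk and chr2:132253181-132253260 (minus strand) for Pcna.
Gadd45g: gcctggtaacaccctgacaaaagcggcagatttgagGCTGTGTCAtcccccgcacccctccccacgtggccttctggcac
Otud1: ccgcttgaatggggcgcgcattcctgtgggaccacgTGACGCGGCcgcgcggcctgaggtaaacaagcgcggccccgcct
Mafk: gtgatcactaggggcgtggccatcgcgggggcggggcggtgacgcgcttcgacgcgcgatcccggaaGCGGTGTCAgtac
Pcna: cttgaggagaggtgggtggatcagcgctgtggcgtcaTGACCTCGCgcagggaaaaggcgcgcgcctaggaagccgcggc

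The same genes were set beside LPS+zVAD without Nec-1. LPS+zVAD against LPS called 12.8% of the genes higher and 21.7% lower, and LPS+zVAD+Nec-1 against LPS+zVAD called 18.7% higher and 9.78% lower. Each of these shares 2 arrays with the comparison of LPS+zVAD+Nec-1 with LPS, so the values are given side by side only. For Gdf15 the LPS+zVAD arrays read 16.57 and 16.60, a log2 change of 6.64 from LPS (adjusted p = 9.12e-06), and adding Nec-1 gave -1.91 log2, which passed the threshold only with the slide as a block (adjusted p = 0.104 without the block and 0.0257 with it). For Hbegf the LPS+zVAD arrays read 14.10 and 14.79, 7.21 log2 above LPS, and it fell by 3.31 log2 with Nec-1 (adjusted p = 0.000153). Plau read 13.46 and 14.004 with LPS+zVAD, 7.33 log2 above LPS, and fell by 3.92 log2 with Nec-1 (adjusted p = 8.66e-05). For these 3 genes the LPS+zVAD+Nec-1 arrays lay between LPS and LPS+zVAD without overlap.
From LPS+zVAD to LPS+zVAD+Nec-1 the log2 change was -2.26 for Tent5c, -1.44 for Gadd45g and -1.37 for Sgk1 (adjusted p = 0.00075, 0.000787 and 0.00353). Otud1 had log2 changes from LPS of 2.86 for LPS+zVAD and 1.83 for LPS+zVAD+Nec-1, and -1.04 with Nec-1 against without (adjusted p = 0.0237). Mafk had 3.58 for LPS+zVAD and 1.42 for LPS+zVAD+Nec-1, and -2.16 with Nec-1 against without (adjusted p = 5.22e-06).

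Of the 16 higher genes, 13 were called lower with Nec-1 than without it, as 9.78% of all genes were. B4galt4 was the only 1 of the 16 called higher, as 18.7% of all genes were, and the 3 lower genes were called neither way. B4galt4 read 9.14 and 9.33 with LPS+zVAD, a log2 change of 0.37 from LPS that did not pass the threshold (SE 0.26, adjusted p = 0.308), and it was 1.14 log2 higher with Nec-1 than without (adjusted p = 0.00249). Dgat2 read 10.24 and 11.19 with LPS+zVAD, and the log2 change with Nec-1 was 0.12 (SE 0.35, adjusted p = 0.853). For Il34 that change was 0.22 log2 (SE 0.33, adjusted p = 0.703) and for Gal3st2 0.40 log2 (SE 0.25, adjusted p = 0.269). Against LPS, the log2 change with LPS+zVAD was -2.30 for Dgat2, -2.20 for Il34 and -1.83 for Gal3st2 (adjusted p = 5.07e-05, 5.38e-05 and 1.87e-05).

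The differences were taken again within each slide. On slide 1 and then slide 2, LPS+zVAD+Nec-1 minus LPS was 3.70 and 5.76 log2 for Gdf15, 2.73 and 5.06 for Hbegf, 2.19 and 4.62 for Plau, and 1.73 and 2.47 for Gadd45g. All 16 higher genes had the larger difference on slide 2, and so did 2 of the 3 lower genes by size. With the slide (the replicate number) as a block in the fit, 162 genes were called (1.01% of the genes), 89 higher (0.553%) and 73 lower (0.454%), and the 19 genes were among them. After a 75th percentile shift in place of quantile normalisation, the block gave 81 higher and 111 lower. The block count was 31 in a fit of the WT arrays alone, 9 of them among the 19. It was 32 without LPS replicate 2, 43 without LPS+zVAD+Nec-1 replicate 2, 125 without LPS+zVAD+Nec-1 replicate 1 and 491 without LPS replicate 1.

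**Figure D3:**
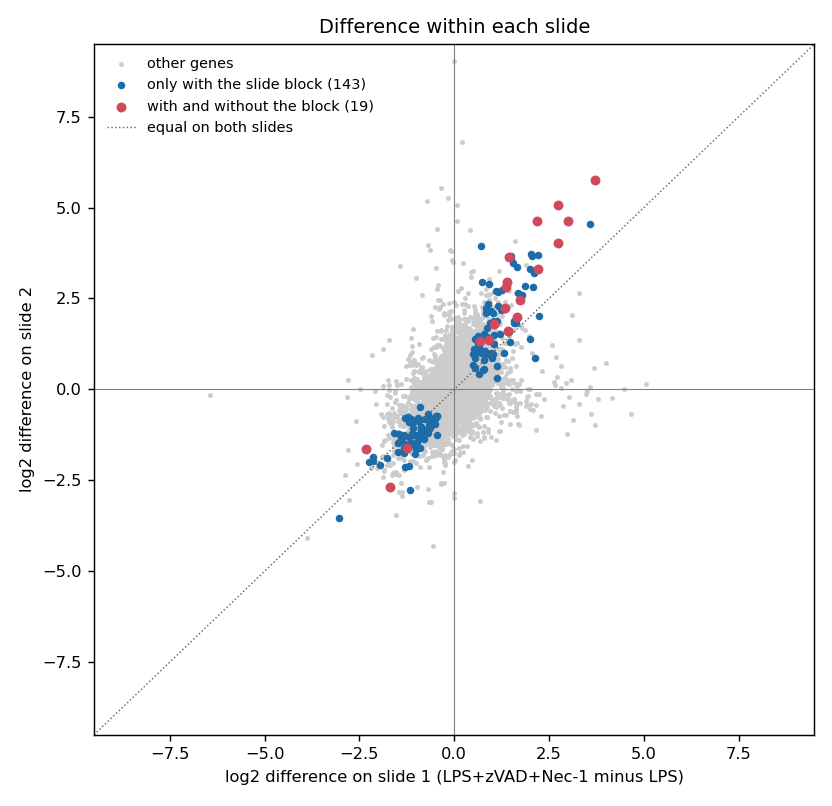
Each point is a gene, with the log2 difference of LPS+zVAD+Nec-1 minus LPS within slide 1 (x axis) and within slide 2 (y axis), and the dotted line marks equal differences. The 19 genes called with and without the slide block are red, the 143 called only with it are blue, and the 16 higher genes lie above the dotted line.

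The naming rule was applied also to the calls that needed the block, after their values were seen. The chemokine receptor gene Cxcr4, whose product binds CXCL12, had the largest log2 change among them. It was at 11.81 and 12.04 in untreated cells, 4.57 and 5.92 with LPS, 12.21 and 13.10 with LPS+zVAD and 8.15 and 10.47 with LPS+zVAD+Nec-1, so that its change from LPS was 3.58 log2 on slide 1 and 4.55 on slide 2 (adjusted p = 0.202 without the block and 0.0174 with it). Trim69 rose from 4.07 and 4.97 to 6.28 and 8.67 (adjusted p = 0.368 and 0.0236), and Htr2a, a serotonin receptor gene, from 5.99 and 5.41 to 8.03 and 9.13 (adjusted p = 0.118 and 0.0185). For each, the second LPS+zVAD+Nec-1 array was the higher one. Plk2, a polo-like kinase gene among the p53 targets, rose from 10.81 and 9.94 to 12.37 and 13.43 (adjusted p with the block 0.0102), and Rgs1, an inhibitor of G-protein signalling, from 11.28 and 11.38 to 12.93 and 14.75 (0.0119). Theg and Slc1a6 (a glutamate transporter gene) rose by 2.36 and 2.18 log2 (adjusted p with the block 0.0174 and 0.0119), and their log2 changes from LPS to LPS+zVAD were 0.39 and 0.05.
The other 5 higher genes that the rule named with the block were Fam214a, Rhov, Dok7, Amz1 and Cd300lf, with log2 changes of 2.17 to 2.66.

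Among the genes lower with the block, Wfdc21 fell from 12.77 and 13.45 to 9.73 and 9.92 (adjusted p = 0.368 without the block and 0.0236 with it). Ccl24 (eotaxin-2, a ligand of CCR3) fell from 11.10 and 10.13 to 8.86 and 8.14 (adjusted p = 0.0687 and 0.0129). Ccr3, its receptor gene, fell from 11.46 and 11.02 to 10.01 and 9.79 (adjusted p = 0.0701 and 0.0119). Ccl6, another chemokine, fell by 0.60 log2 (adjusted p with the block 0.0334), and Slc16a3, the lactate exporter of glycolytic cells, by 1.65 log2 (0.0381). The LPS arrays lay far apart for Slc16a3, at 13.61 and 16.07. Cass4 and Ddx11 were above background with LPS and not well above background with LPS+zVAD+Nec-1, where they were at least 2.51-fold and 1.68-fold lower (adjusted p with the block 0.0282 and 0.0264). Tmem238 and Eml6 were not well above background with LPS+zVAD+Nec-1 either, and for them no bound on the fold could be given. The other 6 lower genes that the rule named with the block were Usp53, Zdhhc2, Ppp1r9a, Cnn2, Zmynd8 and Gpr155, with log2 changes of -1.44 to -2.03.

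The transcripts that the study followed as cytokines and chemokines did not pass the threshold, with or without the block. Tnf was at 16.79 and 15.87 with LPS and 16.68 and 17.01 with LPS+zVAD+Nec-1 (log2 change 0.52, SE 1.11, adjusted p = 1). With LPS against LPS+zVAD+Nec-1, Il1b was at 17.79 and 17.82 against 17.07 and 16.96 (-0.79 log2, SE 1.80), Il1a at 13.09 and 12.52 against 11.38 and 11.62 (-1.31 log2, SE 1.54), and Il6 at 17.06 and 15.55 against 16.54 and 15.83 (-0.12 log2, SE 1.60), all with an adjusted p of 1. On both slides Il1a and Il1b were lower with LPS+zVAD+Nec-1, and Tnf and Il6 went opposite ways on the 2 slides. The neutrophil-attracting chemokines Cxcl1 and Cxcl2 had log2 changes of 0.61 (SE 1.46) and 0.996 (SE 1.44). Ifnb1, which encodes IFNβ, was at 10.38 and 9.004 with LPS, 14.02 and 15.51 with LPS+zVAD and 12.29 and 12.44 with LPS+zVAD+Nec-1 (2.67 log2 against LPS, SE 1.02, adjusted p = 0.546, and 0.165 with the block). Both LPS+zVAD+Nec-1 arrays of Ifnb1 read higher than both LPS arrays, but the change was not called in either fit. Il10 was at 12.54 and 11.43 against 13.19 and 12.96 (1.09 log2, adjusted p = 1), and Zfp36, whose product destabilises AU-rich mRNAs, at 13.61 and 12.25 against 14.02 and 14.25 (1.21 log2, SE 0.55, adjusted p = 0.727).
Il12a and Il12b did not pass the filter on dim probes, being above background on 34.4% and 46.9% of the 32 arrays. In a fit without that filter Il12a went from 8.83 and 8.11 with LPS to 6.28 and 5.87 with LPS+zVAD+Nec-1 (log2 change -2.40, SE 1.02, adjusted p = 0.743) and Il12b from 15.26 and 13.11 to 13.85 and 12.66 (-0.93 log2, SE 1.52, adjusted p = 1). The fit pools the spread of all 16 groups, the Ifnar1KO LPS+zVAD+Nec-1 arrays included, which read 15.9 and 9.99 for Tnf. Without that pair of arrays none of Tnf, Il1a, Il1b, Il6, Il10, Cxcl1, Cxcl2, Ifnb1 and Zfp36 was called either.

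The genes of the necroptosis pathway did not pass the threshold. Ripk1 was at 12.42 and 12.21 with LPS and 12.69 and 12.70 with LPS+zVAD+Nec-1 (0.38 log2, SE 0.16, adjusted p = 0.636), Ripk3 at 11.47 and 12.16 against 11.59 and 12.15 (0.05 log2, adjusted p = 1) and Mlkl at 14.31 and 13.85 against 14.53 and 14.38 (0.38 log2, adjusted p = 1). Casp8 was at 13.95 and 13.62 against 14.08 and 14.002 (0.26 log2, SE 0.23, adjusted p = 1). Against LPS+zVAD, the log2 change with Nec-1 was -0.83 for Ripk1 and -1.52 for Ripk3 (adjusted p = 0.000603 and 0.000492), and 1.25 for Casp8 (adjusted p = 0.000425). In the list of 25 necroptosis genes and regulators the median log2 change from LPS was 0.06, with 0 genes called. Cyld, the deubiquitinase that acts on RIPK1 complexes, had the largest change of that list in size (-0.46 log2, SE 0.30, adjusted p = 1).

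Gene lists were described by their counts and medians, beside a median of -0.0018 log2 over all genes. Of the interferon-stimulated effectors 37 of 40 were above 0, with a median of 0.34 log2, and 0 were called with or without the block. Their median was 0.14 log2 within slide 1 and 0.48 within slide 2, and Cmpk2 had the largest value (16.98 and 15.72 with LPS and 17.55 and 17.49 with LPS+zVAD+Nec-1, adjusted p = 0.39). Of the genes of glycolysis and hypoxia 21 of 26 were below 0, with a median of -0.42 log2 (-0.21 on slide 1 and -0.71 on slide 2). None was called without the block, and 1, Slc16a3, was called lower with it, where 0.454% of all genes were. Of 14 chemokine receptors 12 were below 0 with a median of -0.42 log2. With the block Ccr3 was called lower and Cxcr4 higher, as 0.454% and 0.553% of all genes were. The medians of 14 MAP kinase phosphatases and Sprouty genes, of 10 AU-rich transcripts that the study named, and of 10 glucocorticoid targets were 0.43, 0.39 and 0.32 log2. Only Sgk1 of those 3 lists was called, as 0.0994% of all genes were called higher. Lysosome and autophagy genes had 22 of 28 above 0 and a median of 0.13 log2.
Of 24 immediate early transcription factors 17 were above 0 (median 0.25 log2), and 2 were called higher with the block, as 0.553% of all genes were, Csrnp1 (12.91 and 12.15 to 14.06 and 14.81, adjusted p = 0.0157) and Atf3 (15.14 and 14.73 to 16.17 and 16.83, 0.0137). In the list of 31 cell cycle genes Pcna was called higher without the block, as 0.0994% of all genes were. Ccne1 (10.54 and 9.94 to 11.49 and 11.77) and Cdt1 (11.91 and 12.14 to 13.34 and 13.74) were called higher with the block, as 0.553% of all genes were. The list's median was 0.02 log2. The 78 mitochondrial ribosome genes and the 31 genes of the respiratory chain had medians of 0.08 and 0.02 log2. Of the 78, Mrps6 was called higher with the block (0.97 log2, adjusted p = 0.0221), as 0.553% of all genes were.
Among the fibroblast markers Pdgfrb, a receptor of PDGF, was at 9.87 and 10.11 with LPS and at 5.98 and 6.04 with LPS+zVAD+Nec-1 (-3.99 log2, SE 0.99, adjusted p = 0.167, and 0.0518 with the block), which was named after its values were seen. The other 3 fibroblast markers moved by less, Col1a2 reading 8.67 and 9.18 with LPS and 8.57 and 9.43 with LPS+zVAD+Nec-1.

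In other lists the member with the largest change in size was not called, and for several the replicates lay far apart. Arg1 (arginase) was at 4.95 and 8.67 with LPS and 3.41 and 5.22 with LPS+zVAD+Nec-1, and Egln3 (an oxygen-sensing hydroxylase of the hypoxia list) at 2.80 and 9.05 against 2.23 and 4.74 (log2 changes -2.50 and -2.44, adjusted p = 0.687 and 0.982). Dusp10, a phosphatase of p38 and JNK, was at 7.56 and 4.94 against 6.88 and 8.91 (1.64 log2, adjusted p = 0.701), and Chac1, a target of ATF4, at 5.37 and 12.25 against 9.52 and 12.02 (1.96 log2, adjusted p = 1). For all 4 of these genes the LPS arrays lay farther apart than the group means did. Fabp4, a fatty acid carrier of macrophages, was at 12.83 and 12.35 against 13.76 and 15.39 (1.98 log2, SE 0.61, adjusted p = 0.322, and 0.0856 with the block).

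**Figure D4:**
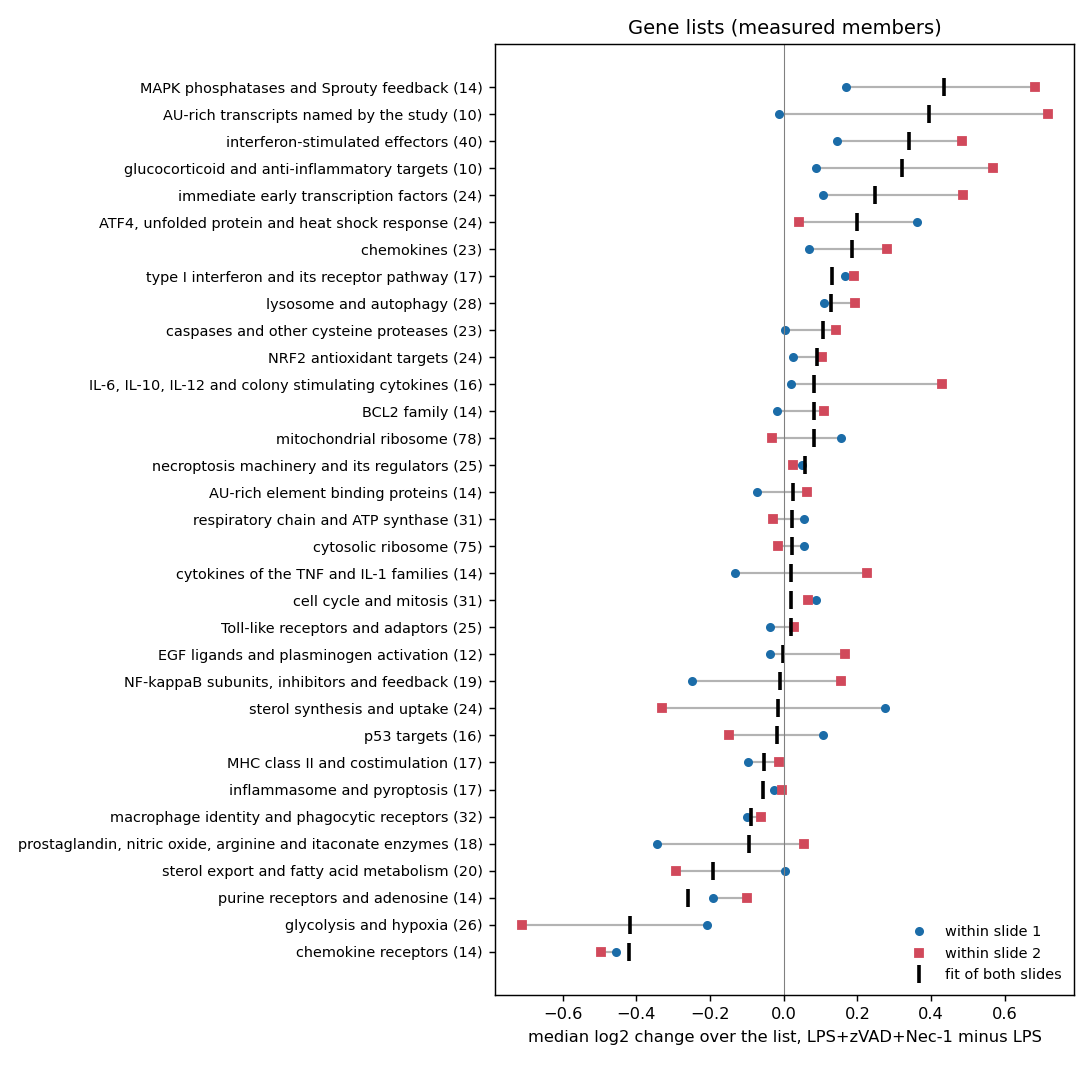
Median log2 change from LPS to LPS+zVAD+Nec-1 over the measured members of each gene list (number in brackets), within slide 1 (circles), within slide 2 (squares) and in the fit of both (black bar). The MAP kinase phosphatases lie highest at 0.43, and the chemokine receptors and the glycolysis and hypoxia genes lowest at -0.42.

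The same inhibitors were added to IFNβ on other WT arrays of the same slides. IFNβ+zVAD+Nec-1 against IFNβ changed 2 of 16090 genes (0.0124%), 1810055G02Rik and AI480461, and 119 with the block (0.74%), with 54.9% of the genes above 0. Of the 16 genes higher under LPS 8 were above 0 there, with a median log2 change of -0.01, and of the 19 genes 0 were called in either fit. Tent5c gave 0.03 log2 there (SE 0.44), Gadd45g -0.06 (SE 0.28), Plau -0.31 (SE 0.60), Dgat2 -0.01 (SE 0.35) and Gdf15 1.34 (SE 0.85). Against IFNβ alone, IFNβ+zVAD without Nec-1 called 0 genes, and 21 with the block (0.131%). LPS+zVAD against LPS called 12.8% of the genes higher and 21.7% lower. The difference between the 2 arms without Nec-1 was not tested. Of the 16 genes 14 were above 0 with IFNβ+zVAD (median 0.70 log2), where 7840 of all 16091 genes were. The difference between the zVAD+Nec-1 change under LPS and that under IFNβ was tested as an interaction, which uses again the LPS arrays that called the 19 genes. It called 0 genes without the block, where 848 had an unadjusted p under 0.05, and 36 with the block (0.224%). With the block in a fit of the WT arrays alone it called 0 as well. The 36 included 6 of the 16 higher genes, Tent5c (difference 3.35 log2, adjusted p = 0.00651), Rgcc (3.67, 0.0388), Tnfsf14 (2.56, 0.0388), Gadd45g (2.16, 0.0388), B4galt4 (1.85, 0.0388) and Sgk1 (1.85, 0.0256), and 1 of the lower genes, Dgat2 (-2.17, 0.0395). For Hbegf and Plau the difference was 3.55 and 3.71 log2 (adjusted p with the block 0.0593 and 0.0533).

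zVAD without LPS or Nec-1 was measured against untreated WT cells, again on other arrays of the same slides. All 16 higher genes had a log2 change above 0 with zVAD alone, where 46.4% of all genes did, and their median was 0.54 log2. Gdf15 went from 10.48 and 10.58 in untreated cells to 14.21 and 15.41 with zVAD (4.27 log2, SE 0.85), and Rgcc from 8.63 and 8.49 to 10.60 and 12.35 (2.91 log2, SE 0.56). Both passed the threshold only with the block (adjusted p = 0.138 and 0.135 without it, and 0.0149 and 0.0243 with it), where 35 genes were called in all (0.218%). Hbegf changed by 1.94 log2 (SE 0.54, adjusted p with the block 0.175), Plau by 1.55 (SE 0.60), Tent5c by 1.45 (SE 0.44) and Tnfrsf12a by 1.41 (SE 0.42), none of which passed. Without the block the fit called 1 gene of all (0.00621%), the chemokine gene Ccl4, which rose by 4.81 log2 with zVAD alone and by 0.27 log2 (adjusted p = 1) between LPS and LPS+zVAD+Nec-1. Of the 3 lower genes 1 was below 0 with zVAD alone, and Dgat2, Il34 and Gal3st2 had log2 changes of 0.09, 0.02 and -0.32.

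**Figure D5:**
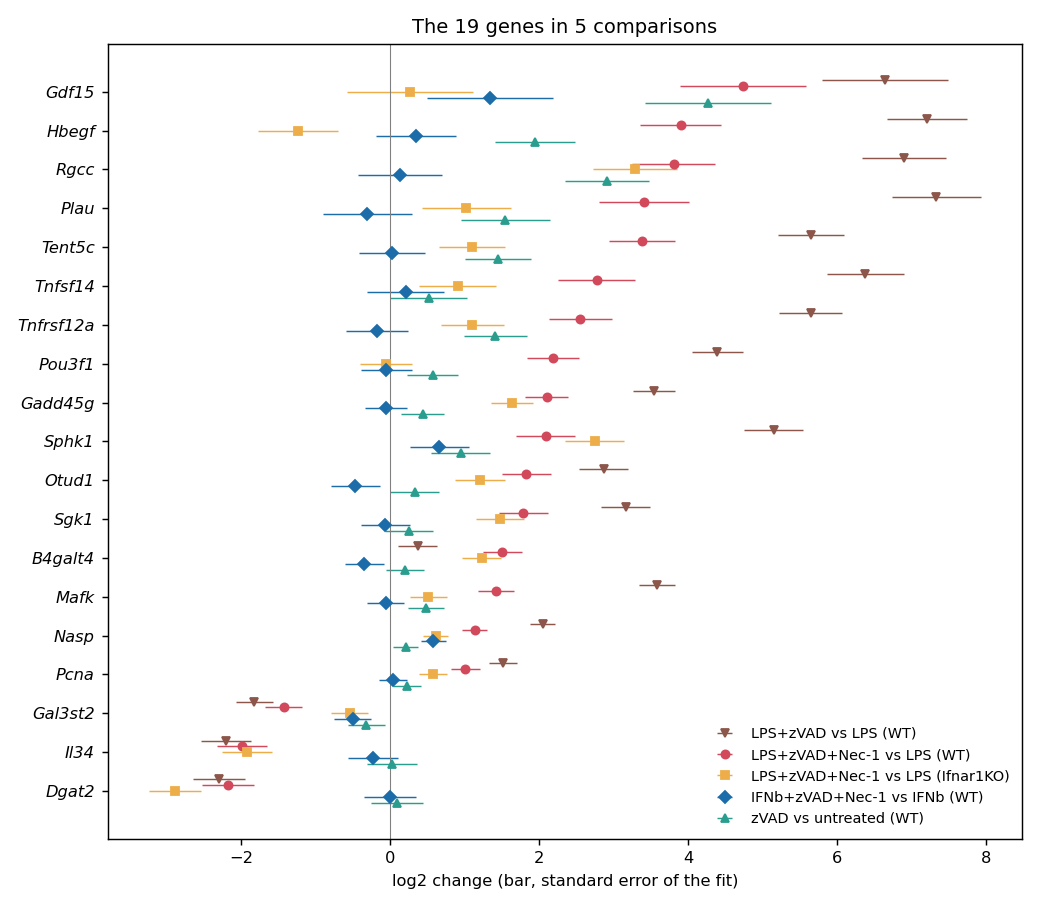
Log2 change (x axis) of each of the 19 genes (rows) in 5 comparisons, with the standard error of the fit as a bar; LPS+zVAD vs LPS shares the LPS arrays with LPS+zVAD+Nec-1 vs LPS, and the other 3 share no array with it. For the 16 higher genes the IFNβ points lie around 0, with a median of -0.01, and the points of zVAD alone all lie above 0, with Gdf15 farthest at 4.27.

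The same pair of treatments was compared in Ifnar1KO BMDMs, which lay on slides 3 and 4. The Ifnar1 probe read 11.2 to 12.4 on the Ifnar1KO arrays and 9.02 to 14.8 on the WT arrays, and where it lies relative to the deleted part is not given in the sources used here. One array stood against its label. On the library labelled Ifnar1KO LPS+zVAD+Nec-1 replicate 2, Tnf was at 9.99, where the Ifnar1KO LPS arrays read 17.5 and 17.7 and the untreated arrays 9.88 and 10.1, and replicate 1 of that group read 15.9. Il6 was likewise at 4.94 on that library, at 14.3 on replicate 1, at 17.3 and 17.5 with LPS and at 2.50 and 2.46 in untreated cells. The counts without the block are therefore given with both arrays and without each.
Between LPS and LPS+zVAD+Nec-1 in Ifnar1KO cells 837 genes were called higher (5.2%) and 816 lower (5.07%), with 52.2% above 0. Of the 19 genes, 17 had the same direction as in WT and 9 of these were called. Without replicate 2 of LPS+zVAD+Nec-1 16 had the same direction and 4 were called (262 genes in all, 1.63%), and without replicate 1 the numbers were 17 and 13 (4100 genes, 25.5%). The 4 called without the doubtful library were Rgcc, Sphk1, Dgat2 and Il34. Rgcc changed by 3.28 log2 with both arrays (adjusted p = 0.00202) and by 4.10 without replicate 2 (0.00136), Sphk1 by 2.75 (0.000445) and 2.79 (0.00485), Dgat2 by -2.89 (9.92e-05) and -2.54 (0.00219), and Il34 by -1.92 (0.00223) and -1.71 (0.0414).

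The change differed between the genotypes for 13 genes (0.0808%), and for 310 with the block (1.93%). The count was 49, 8 of them among the 13, without the doubtful library, and 1957 without replicate 1 of that group, the 13 among them. Of the other libraries, it was 0 without Ifnar1KO LPS replicate 1, 1 without WT LPS+zVAD+Nec-1 replicate 2, 2 without WT LPS replicate 2, 26 without WT LPS+zVAD+Nec-1 replicate 1 and 90 without WT LPS replicate 1. One of the 13, Hbegf, is among the 19. For the 19 genes this test uses again the WT arrays that called them, which favours a difference opposite in sign to the WT change. Hbegf was at 9.08 and 9.20 on the Ifnar1KO LPS arrays and at 7.74 and 8.07 with LPS+zVAD+Nec-1 (log2 change -1.24, adjusted p = 0.156), which differed from the WT change by -5.13 log2 (SE 0.76, adjusted p = 0.00875, 0.00993 without the doubtful library and 0.0011 without replicate 1). Gdf15, at 11.4 and 11.6 with LPS and at 11.7 and 11.8 with LPS+zVAD+Nec-1 in Ifnar1KO cells, changed by 0.26 log2, and its difference from WT was -4.47 log2 (adjusted p = 0.15, and 0.0247 with the block). Without the block that difference had an adjusted p of 0.31 without the doubtful library and of 0.0434 without replicate 1. Pou3f1 changed by -0.05 log2 in Ifnar1KO cells, and the difference from WT was -2.24 log2 (adjusted p = 0.0772, and 0.0244 with the block). Without the block its adjusted p was 0.139 without the doubtful library and 0.0119 without replicate 1.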

How the data were processed

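Total RNA of 32 BMDM samples was hybridised to 1-colour (Cy3) Agilent mouse arrays. The deposited scanner files hold signal intensity per spot, which the authors' scanner software had background-subtracted and detrended within each array but not normalised between arrays, and flags for spots above background. The authors also deposited a table of normalised log2 values, used as an alternative. The labels name limma, without a version. Groups were taken from the labels.

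log2 intensities were quantile-normalised, spots flagged as outliers were left out, probes well above background on at least 50% of arrays were kept (21465 of the 33140 probes with a gene symbol), and the brightest probe stood for each of 16091 genes. Fold changes on the log2 scale were tested with limma 3.58.1 (R 4.3.3) in 1 fit of 16 group means over 32 arrays, with Benjamini-Hochberg adjustment over all genes and a threshold of 0.05. With 2 arrays a group, their number limits the precision. Adjusted p-values are from this fit unless the block is named.

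WT replicates 1 and 2 lay on slides 1 and 2, so the replicate number was also fitted as a block. Same-numbered WT arrays deviated together from their group means in 28 of 28 pairs of groups (correlation 0.32 to 0.67, and 0.67 for LPS with LPS+zVAD+Nec-1), and Ifnar1KO arrays likewise in 28 of 28 (0.17 to 0.57). The pairing comes from the slides in the file headers.

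Genes were named by rule: the 12 largest called rises and falls with no overlap between groups, no flagged spot and signal above background in the brighter group, up to 5 called members (or else the largest) of each gene list, a fixed set of cytokine and necroptosis genes, and the 5 called genes with the lowest adjusted p in each direction of each difference between arms. The comparison, the lists and the rule were chosen with earlier results of these data known. The fit was run on simulated data whose noise was independent between arrays and held no slide effect, unlike that of these arrays. Alternatives were other background corrections, scalings, filters, probe rules, array subsets, the block and leaving out each array. RefSeq symbols were matched for 27656 probes.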

Additional observations from a re-analysis of the deposited data

Results flagged for a closer look

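For 13 genes the change from LPS to LPS+zVAD+Nec-1 differed between Ifnar1KO and WT cells by an interaction test in limma across all genes (adjusted p from 0.00797 to 0.0483). These values include the library labelled Ifnar1KO LPS+zVAD+Nec-1 replicate 2, on which Tnf and Il6 stood far below the other array of the group. The Ifnar1KO change minus the WT change was -5.19 log2 for Trim30c, -5.13 for Hbegf, -4.51 for Cish, -3.78 for Schip1, -3.55 for Il1rn, -2.64 for Tmem61 and -2.30 for Plaur. It was 3.73 log2 for Fkbp5, 3.60 for Ifit3, 3.47 for Mertk, 2.99 for Per1, 2.33 for Slc43a2 and 2.19 for Gm19958. Of these, only Hbegf was called in WT cells, on WT arrays that the interaction uses again. The WT change of the other 12 lay between -0.32 log2 for Slc43a2 and 1.01 log2 for Trim30c. Per1, Il1rn and Plaur stood outside the naming rule and are given because they are among the 13.

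Fkbp5 and Per1 are both targets of the glucocorticoid receptor. Fkbp5 read 10.6 and 10.4 on the Ifnar1KO LPS arrays and 13.9 and 15.3 with LPS+zVAD+Nec-1, and Per1 10.8 and 11.0 against 13.3 and 14.7. Ifit3, an interferon-stimulated gene, read 3.86 and 5.00 with LPS and 8.11 and 8.64 with LPS+zVAD+Nec-1. Cish, a STAT5-induced inhibitor of cytokine signalling, fell there from 11.8 and 12.2 to 8.19 and 7.05, and Trim30c from 9.94 and 10.0 to 6.38 and 5.21.

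Without the doubtful library the difference kept its sign for the 12 genes that still had a value, and its adjusted p was 0.00963 for Fkbp5, 0.00993 for Hbegf, 0.0153 for Gm19958, 0.0366 for Trim30c and Slc43a2, 0.0400 for Schip1, 0.0476 for Mertk and 0.0497 for Ifit3. It was 0.0606 for Cish, 0.0637 for Plaur, 0.0701 for Per1 and 0.0891 for Il1rn. Tmem61 had no value without that library, since its spot on replicate 1 was left out as an outlier and the Ifnar1KO mean with LPS+zVAD+Nec-1 rests on replicate 2 alone. On replicate 1 Il1rn read 9.65, against 9.51 and 9.38 in untreated Ifnar1KO cells and 12.34 and 12.41 with LPS. Slc43a2 read 14.24, against 14.69 and 14.45 untreated and 12.75 and 12.54 with LPS. Mertk and Plaur also lay near untreated there, and Cish, Schip1 and Trim30c between untreated and LPS. Fkbp5, Per1, Gm19958 and Ifit3 lay above both, and Hbegf below both. Whether a response to LPS partly lost on both arrays made the differences was not tested, and leaving out replicate 2 cannot show it.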

How the results depend on the processing

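The count of 19 genes stayed within 1.5 times under 6 alternatives (18 to 28) and moved under the others. It was 41 (21 higher, 20 lower) with normexp background correction, 0 with only the 4 arrays compared or only the WT arrays, 82 without the Ifnar1KO LPS+zVAD+Nec-1 arrays, and 0 to 69 when 1 array was left out. With the replicate block it was 162, with the block 31 over the WT arrays alone and 192 (81 higher, 111 lower) after a 75th percentile shift, and 125, 43, 491 and 32 without LPS+zVAD+Nec-1 replicate 1, LPS+zVAD+Nec-1 replicate 2, LPS replicate 1 and LPS replicate 2. The settings that combine the block with another choice were added after seeing the data.

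LPS+zVAD+Nec-1 against LPS+zVAD called 4576 genes, 0 with only its own arrays, 2585 (without LPS+zVAD replicate 2) to 4365 with 1 array left out, and 7129 with the block and the 75th percentile shift. The IFNβ comparison called 2 genes, 5 with the 75th percentile shift and with the authors' normalised log2 table, 13 with normexp, 34 without the filter on dim probes, 119 with the block, 0 with only its arrays or only the WT arrays, 8 without the Ifnar1KO arrays, 7 to 222 (without IFNβ+zVAD+Nec-1 replicate 2) with 1 array left out, and 12 (WT arrays) and 155 (75th percentile shift) with the block. The difference between LPS and IFNβ called 0 genes with limma (848 at an unadjusted p under 0.05), 17 without the filter, 36 with the block but 0 with the block and only the WT arrays, 10 without the Ifnar1KO arrays, 0 to 143 (without IFNβ+zVAD+Nec-1 replicate 2) with 1 array left out and 44 with the block and the shift. The difference between genotypes called 13 genes, 22 with the shift, 82 with normexp, 30 with the authors' table, 310 with the block, 0 with only its arrays, 41 with trended and robust moderation, 0 (without Ifnar1KO LPS replicate 1) to 1957 (without Ifnar1KO LPS+zVAD+Nec-1 replicate 1) with 1 array left out and 447 with the block and the shift. The cause of these moves was not tested.

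Of the 19 genes, the 16 named by the rule kept their sign under each alternative run. Over the alternatives of all named genes, 1118 values kept direction and side of the threshold, 104 lost the call, 32 gained it and 41 changed sign, all of genes not called. After the 75th percentile shift, with or without the block, Ripk3 was -0.0060 and Gm19958 -0.025 log2. Schip1 was -0.041 with normexp and -0.14 with the authors' table. With 1 array left out, the log2 changes that crossed 0 ran from -1.48 to 5.40 for Chac1, -0.24 to 2.25 for Pmaip1, -2.33 to 0.41 for Mefv, -5.56 to 0.69 for Egln3, -0.87 to 0.64 for Il6, -0.30 to 0.40 for Ripk3, -0.23 to 0.98 for Fkbp5, -0.010 to 0.14 for Gm19958, -0.012 to 0.44 for Tmem61, -0.11 to 0.14 for Schip1 and -0.42 to 0.64 for Cish. With the block as well, the values of changed sign were Dusp10 -0.19, Chac1 -0.33, Tnf -0.075, Il6 0.12 and 0.58, Cxcl1 -0.48, Cxcl2 -0.092, Ripk3 -0.19 and -0.27, Fkbp5 -0.10, Gm19958 -0.11 and -0.14, Slc43a2 0.015, Tmem61 -0.12, Schip1 -0.049 and -0.16, and Cish -0.33 and -0.77.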
